A study of Mus musculus with 12 samples.

Results

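Methylmalonyl-CoA mutase (Mmut) and the enzymes that feed it and load its cofactor were followed in mouse embryonic fibroblasts (MEFs) at an early stage of reprogramming. The 8 genes were chosen by symbol from the gene table, as Mmut (named Mut in the annotation used), Mmaa, Mmab, Mcee, Pcca, Pccb, Suclg2 and Hibch, out of 55573 genes in all. All 8 passed the filter on low counts, which kept 19174 genes. The fibroblasts came from 3 C57BL/6 embryos taken at day 13.5 (E13.5), called clones 1, 2 and 3, and all carried a doxycycline-inducible cassette of Oct4, Sox2, Klf4 and Myc (OSKM). Uninduced cells (MEF) received no doxycycline and induced cells (OSKM) received it at 1 µg/ml. Each state was grown without or with 2 µM vitamin B12 (B12) for 72 h in the medium used for induced pluripotent stem cells. The resulting 4 groups (MEF and OSKM, and with the vitamin MEF+B12 and OSKM+B12) held 1 library per clone (n = 3 each, 12 libraries). Doxycycline was absent from both uninduced groups, so effects of the drug and of the factors cannot be told apart, and each clone is a single embryo.

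Propionyl-CoA arises from valine, isoleucine, methionine, threonine, odd-chain fatty acids and the cholesterol side chain. Propionyl-CoA carboxylase, a biotin enzyme made of alpha (Pcca) and beta (Pccb) subunits, turns it into methylmalonyl-CoA, the epimerase Mcee changes the stereoisomer, and Mmut rearranges it to succinyl-CoA for the tricarboxylic acid (TCA) cycle. Mmut needs adenosylcobalamin, a form of B12 that Mmab makes and that Mmaa helps to load and guard, and it is, beside the cytosolic methionine synthase Mtr, the other mammalian enzyme with a B12 cofactor. Suclg2 is the GTP-forming beta subunit of succinyl-CoA synthetase, which uses the product, and Hibch removes CoA from a valine intermediate upstream. The libraries measured RNA and not enzyme activity or metabolites.

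Library totals ranged from 56971244 to 79236795 counted read pairs, and each member had 409 to 4567 counts in a library. All 9 fibroblast markers were at 1 CPM or more (CPM is the count per 1000000 counts of the library, scaled by TMM) in every library. Summed CPM over 13 macrophage markers was 619 to 1146 in MEF, 1042 to 1687 in MEF+B12, 641 to 1074 in OSKM and 1079 to 1394 in OSKM+B12, and 11 of the 13 rose with B12. Of these markers Cd163 stayed under 1 CPM and was not tested. Cx3cr1 went the other way, short of the threshold used below. Its means were 5.05 CPM in MEF and 3.64 in MEF+B12, and 3.47 in OSKM and 2.61 in OSKM+B12. The same sum was 1074 to 1687 in clone 1, 702 to 1310 in clone 2 and 619 to 1079 in clone 3. Induction was checked by the factors. Pou5f1 (Oct4) was at most 0.468 CPM in the 6 uninduced libraries. Its 2 induced libraries were at 19.3 and 20.7 CPM in clone 1, at 18.5 and 18.96 CPM in clone 2, and at only 2.86 and 2.34 CPM in clone 3, so clone 3 stood apart among the induced libraries. Averaged over B12, the log2 fold changes were 5.96 ± 0.15 for Pou5f1, 4.22 ± 0.29 for Sox2, 0.88 ± 0.17 for Myc and -0.12 ± 0.03 for Klf4, all past the threshold (adjusted p of 0.0452 or less, edgeR). Pou5f1, Sox2 and Myc thus rose with induction, while Klf4 fell slightly. Markers of cell types also moved with averaged induction, and their part in the results below was not tested. Of the fibroblast markers 4 of 9 fell (Pdgfrb, Pdgfra, Col1a1 and Col1a2, by 0.26 to 0.35 on the log2 scale), and their sum was 108122 to 136528 CPM in the 6 uninduced and 85011 to 111950.4 CPM in the 6 induced libraries. Of 5 epithelial markers 3 rose (Krt8, Cdh1 and Krt19), with sums of 4.77 to 7.99 CPM uninduced and 7.19 to 20.96 CPM induced and with Epcam, Cdh1 and Krt18 under 1 CPM throughout. Of 5 endothelial markers 2 rose (Tek and Cdh5), with sums of 41.7 to 46.5 CPM uninduced and 48.7 to 144.9 CPM induced and with Pecam1 and Emcn under 1 CPM throughout. Tek made up most of these sums, with means of 38.8 CPM in MEF and 101 CPM in OSKM. Kdr, the remaining marker tested, did not pass, with means of 3.91 CPM in MEF and 3.89 CPM in OSKM. The share of all genes past the threshold for averaged induction was 9.73%. In the epithelial and endothelial lists the induced libraries of clone 3 had the lowest sums among the induced ones. Of the macrophage markers Itgam rose and Csf1r and Adgre1 fell. Of 5 neural markers 1 rose and 1 fell, with sums of 24.3 to 41.2 CPM uninduced and 27.3 to 41.3 CPM induced. Of 5 muscle markers 1 fell, with sums of 4.84 to 8.44 CPM uninduced and 3.33 to 8.67 CPM induced. The year written in the titles sets clone 1 apart from the other two, so year and embryo cannot be told apart.

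The first comparison asked whether Mmut RNA differed with induction or with B12. For clones 1, 2 and 3, Mmut was 29.6, 33.3 and 31.5 CPM in the MEF libraries, compared with 29.9, 31.1 and 31.97 CPM under MEF+B12. The OSKM libraries had 30.3, 31.6 and 32.1 CPM, compared with 31.4, 33.8 and 31.3 CPM under OSKM+B12. The 4 groups overlapped, with means of 31.5 ± 1.87, 30.98 ± 1.03, 31.3 ± 0.897 and 32.2 ± 1.39 CPM (SD, n = 3). Averaged over both B12 conditions, the log2 fold change of OSKM over MEF was 0.02 ± 0.03 (SE), with an adjusted p of 0.687 in edgeR's quasi-likelihood test. The 95% confidence interval of the change ran from -3.30% to 6.91%. Averaged over both states, the log2 fold change with B12 was 0.01 ± 0.03 (adjusted p = 0.935), with an interval from -4.36% to 5.73%.

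Taken group by group, Mmut gave log2 fold changes of -0.01 ± 0.05 for induction without B12 and 0.05 ± 0.05 with B12. It gave -0.02 ± 0.05 for B12 in MEF and 0.04 ± 0.05 for B12 in OSKM. The difference between the B12 effects in OSKM and in MEF was 0.06 ± 0.07, with an interval of -0.08 to 0.20. The directions within clones were mixed. For induction averaged over B12 the log2 differences were 0.05 and 0.02 in clones 1 and 2 and about 0 in clone 3, the clone with least Pou5f1. Without clone 3 the averaged value for Mmut was 0.04 (adjusted p = 0.628, edgeR), and without the OSKM library of clone 1 it was 0.02 (adjusted p = 0.705).

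**Figure D1:**
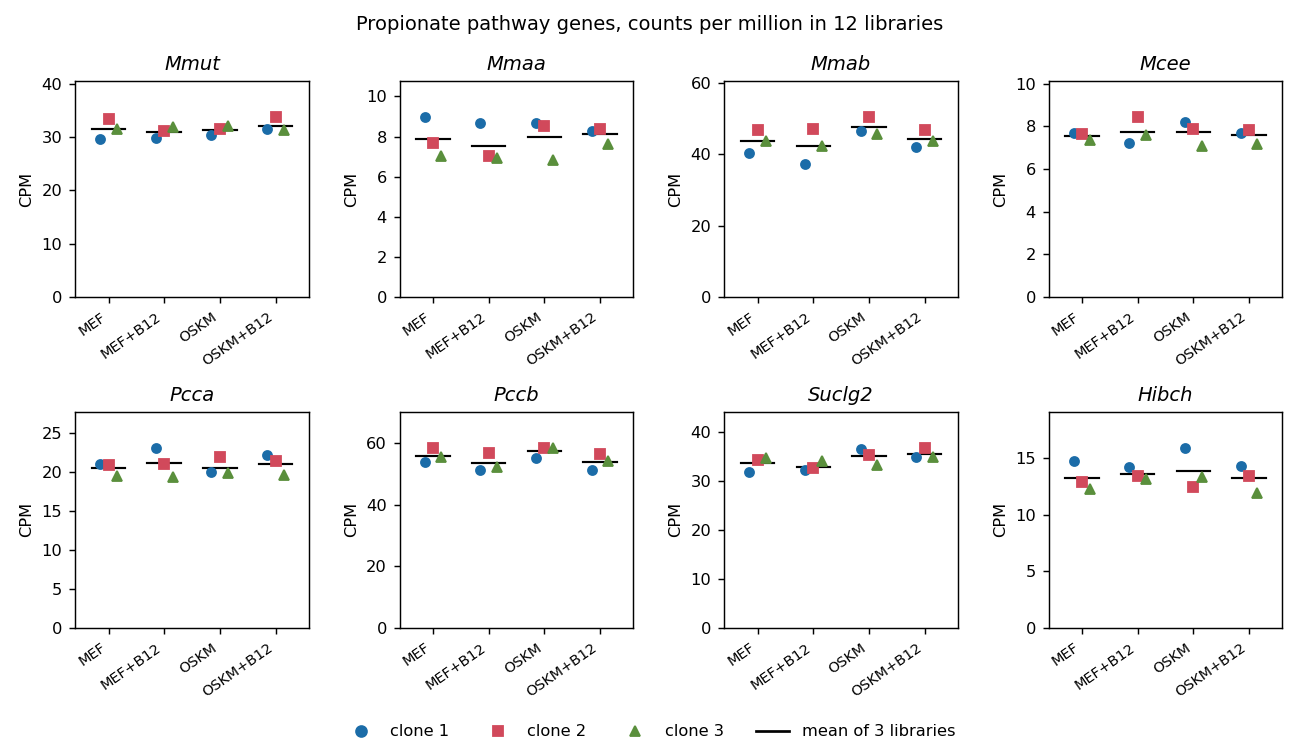
CPM (linear axes from 0) of the 8 genes in each of the 12 libraries, by group on the horizontal axis, with 1 point per clone and a bar at the mean of 3 libraries. Mmut stayed between 29.6 and 33.8 CPM and, of the comparisons between MEF and OSKM or without and with B12, the groups separated only for Suclg2 between MEF+B12 and OSKM+B12.

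None of the 8 members passed the threshold (adjusted p of 0.05 over all genes tested) in any of the 7 contrasts, by edgeR or by DESeq2. Over all genes, 9.73% passed for induction averaged over B12 and 3.84% for B12 averaged over states, with 45.9% of the induction calls higher (70.3% with library totals in place of TMM scaling), so 0 of 8 was near the background and is no result about these genes as a set. The shares were 0.073% and 0.104% for induction without and with B12, 1.06% and 1.38% for B12 in OSKM and in MEF, and 0.0% for the interaction, where 273 genes (1.42%) had an unadjusted p under 0.05 and DESeq2 also called 0. An unadjusted p under 0.05 was reached by 2 of 8 members for averaged induction (26.8% of all genes) and 2 of 8 for averaged B12 (15.5%), by 1 of 8 for induction without B12 (19.0%) and for B12 in OSKM (9.82%), and by none for induction with B12 (14.9%), B12 in MEF (10.3%) or the interaction. The intervals limit the size of any change. Over the 8 members they ran from -0.12 to 0.19 on the log2 scale for averaged induction and from -0.16 to 0.13 for averaged B12. They were wider in the other contrasts, such as -0.20 to 0.29 for induction with B12 and -0.25 to 0.20 for B12 in MEF. The widest were those of the interaction, from -0.32 to 0.35. The median log2 fold change of the members was 0.02 for averaged induction, against -0.0028 over all genes tested, and -0.01 for averaged B12, against -0.01. The 2 B12 contrasts are built from the same libraries as the induction contrasts and are not separate experiments.

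**Figure D2:**
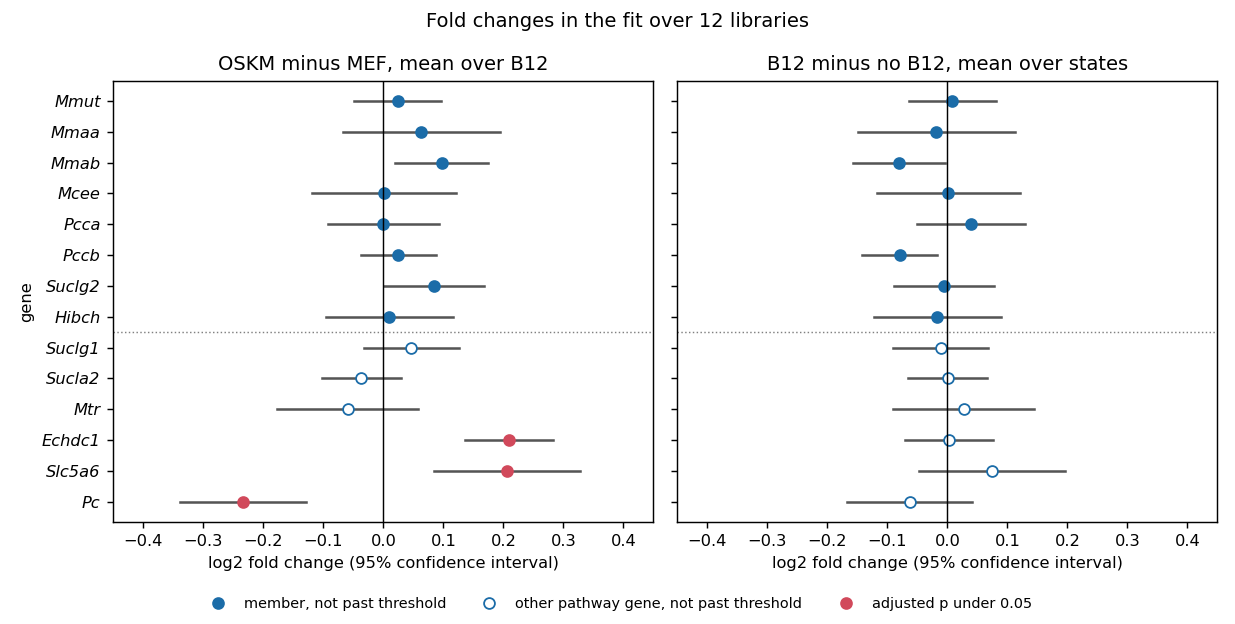
Log2 fold changes (horizontal axes) with 95% confidence intervals from the fit over 12 libraries, for the 8 members above the dotted line and for 6 other pathway genes under it, for averaged induction on the left and averaged B12 on the right. Members lie close to 0, while Echdc1 and Slc5a6 were past the threshold as rises and Pc as a fall with induction.

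Among the cofactor genes, Mmab, the adenosyltransferase that makes the form of B12 used by Mmut, had the lowest adjusted p with induction. Clones 1, 2 and 3 had 40.4, 46.8 and 43.8 CPM in MEF, against 46.6, 50.4 and 45.6 CPM in OSKM. With B12 they had 37.3, 46.98 and 42.2 CPM uninduced, against 42.03, 46.7 and 43.7 CPM induced. Within each clone the OSKM library was above the MEF library, as was so in one direction or the other for 34.8% of all genes, but the groups overlapped. The log2 fold change was 0.12 ± 0.05 without B12 (unadjusted p = 0.0294 and adjusted p = 0.223, edgeR, where 19.0% of all genes had an unadjusted p under 0.05) and 0.10 ± 0.04 averaged over B12 (adjusted p = 0.104). With library totals in place of TMM scaling the averaged value was 0.14, with an adjusted p of 0.0395 in edgeR, and without clone 1 it was 0.05, with an adjusted p of 0.489. Library totals also moved the median over all genes, to 0.0434 from -0.0028 with TMM, so the higher value is not particular to Mmab. With B12 averaged over states Mmab was at -0.08 ± 0.04 (unadjusted p = 0.0424 and adjusted p = 0.299, edgeR), and its within-clone averages were negative in 3 of 3 clones. The same sign in 3 of 3 clones was seen in 43.6% of all genes. In the uninduced libraries of clone 2 Mmab did not fall, at 46.8 CPM without and 46.98 CPM with B12.

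Mmaa, the chaperone of the mutase, was 6.82 to 8.97 CPM over the 12 libraries. Its log2 fold changes were 0.06 ± 0.06 for averaged induction and -0.02 ± 0.06 for averaged B12, the widest intervals among the members. Of its sequence, cut into 31-base words, 4.77% is shared with other genes, most with the predicted gene Gm4935.

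Pccb, the beta subunit of the carboxylase, had the lowest adjusted p with B12. In MEF it was 54.1 CPM in clone 1, 58.4 in clone 2 and 55.6 in clone 3, and the MEF+B12 libraries of the same clones had 51.3, 56.9 and 52.5 CPM. Induced cells had 55.4, 58.5 and 58.6 CPM without the vitamin (OSKM), compared with 51.3, 56.5 and 54.2 CPM when it was added (OSKM+B12). Every B12 library was below its partner of the same clone and state, by little, and the groups overlapped. The log2 fold change was -0.08 ± 0.03 averaged over states (unadjusted p = 0.0176 and adjusted p = 0.194, edgeR) and -0.09 ± 0.04 in OSKM (adjusted p = 0.493, with 9.82% of all genes at an unadjusted p under 0.05). Over all genes, 43.6% had the same sign in 3 of 3 clones for averaged B12, 32.5% for B12 in OSKM and 41.6% for B12 in MEF. These rules are weaker than 1 direction in every pair of both states, for which no share was counted. The macrophage marker sum moved with B12 in the same libraries, and its part in these differences was not tested. Pcca, the alpha subunit that carries biotin, gave -2.6e-05 ± 0.04 for averaged induction and 0.04 ± 0.04 for averaged B12, over 19.4 to 23.1 CPM.

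Mcee gave 0.00087 ± 0.05 for averaged induction and 0.0017 ± 0.05 for averaged B12, over 7.09 to 8.44 CPM. For clones 1, 2 and 3, Suclg2 stood at 31.9, 34.4 and 34.8 CPM in MEF, and at 32.2, 32.6 and 34.0 CPM in MEF+B12. Its induced levels were 36.6, 35.4 and 33.3 CPM (OSKM), or 34.98, 36.8 and 34.9 CPM (OSKM+B12). With B12, all 3 OSKM+B12 libraries were above all 3 MEF+B12 libraries, a separation seen in 1 of 8 members and 10.5% of all genes. In the other comparisons 0 of 8 members separated, against 9.09% of all genes for induction without B12, 7.53% for B12 in OSKM, 9.39% for B12 in MEF, and 1.12% and 0.954% for the 6 induced or B12 libraries against the other 6. The log2 fold change was 0.11 ± 0.05 with B12 (adjusted p = 0.374, edgeR) and 0.08 ± 0.04 averaged over B12 (unadjusted p = 0.0473 and adjusted p = 0.181, edgeR), and -0.01 ± 0.04 for averaged B12. Its counts are uncertain, since other genes, most of all Gm15163, hold 20.6% of its 31-base words. Hibch gave 0.01 ± 0.05 for averaged induction and -0.02 ± 0.05 for averaged B12, over 11.9 to 15.9 CPM, with 3.20% of its words shared.

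The partners of Suclg2 did not pass the test either. Suclg1, the alpha subunit, was at 0.05 ± 0.04 and Sucla2, the ATP-forming beta subunit, at -0.04 ± 0.03 for averaged induction (adjusted p = 0.446 and 0.467, edgeR). The ratio of Suclg2 to Sucla2, in CPM per kilobase of exons, had a median of 0.474 over the 12 libraries and ranged from 0.450 to 0.558. It was 0.462 ± 0.0159 in MEF and 0.503 ± 0.0521 in OSKM (SD, n = 3). Mtr was at -0.06 ± 0.05 for averaged induction and 0.03 ± 0.05 for averaged B12 (adjusted p = 0.518 and 0.850, edgeR), so neither enzyme with a B12 cofactor passed the test at the RNA level in these contrasts.

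Mmut varied little among libraries. The SD of its log2 CPM over the 12 libraries was 0.0563, and 4.02% of the genes tested had a smaller one. The SDs of the other members lay between 0.0666 for Suclg2 and 0.144 for Mmaa. The median over the 8 members was 0.0795, against 0.125 over the 7203 genes within the members' range of mean level and 0.190 over all genes tested. These SDs are a description of the libraries and depend on depth and level.

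Per kilobase of annotated exons, the levels spanned a wide range. Pccb was highest at 19.9 ± 0.961 CPM per kilobase (SD over 12 libraries), followed by Mmab at 12.1 ± 0.962, Mmut at 8.32 ± 0.326, Mcee at 8.003 ± 0.431 and Suclg2 at 7.42 ± 0.342. Pcca was at 3.997 ± 0.230, Hibch at 2.23 ± 0.188 and Mmaa at 1.31 ± 0.130. The longest annotated transcript of Hibch (3765 bases) has 1 exon and is also part of its exon union (6059 bases). The level of Hibch per kilobase is therefore uncertain with either length. The ranges of Mmut and Mcee overlapped, as did those of Mcee and Suclg2, and no other neighbours in this order did. With the longest transcript as length, Suclg2 (10.2) and Mcee (9.24) stood above Mmut (8.57). The beta subunit Pccb exceeded the alpha subunit Pcca by a median ratio of 5.09 on exons and 3.02 on the longest transcript. Mmut exceeded its chaperone Mmaa by a median ratio of 6.45, and Mtr by 2.26.

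**Figure D3:**
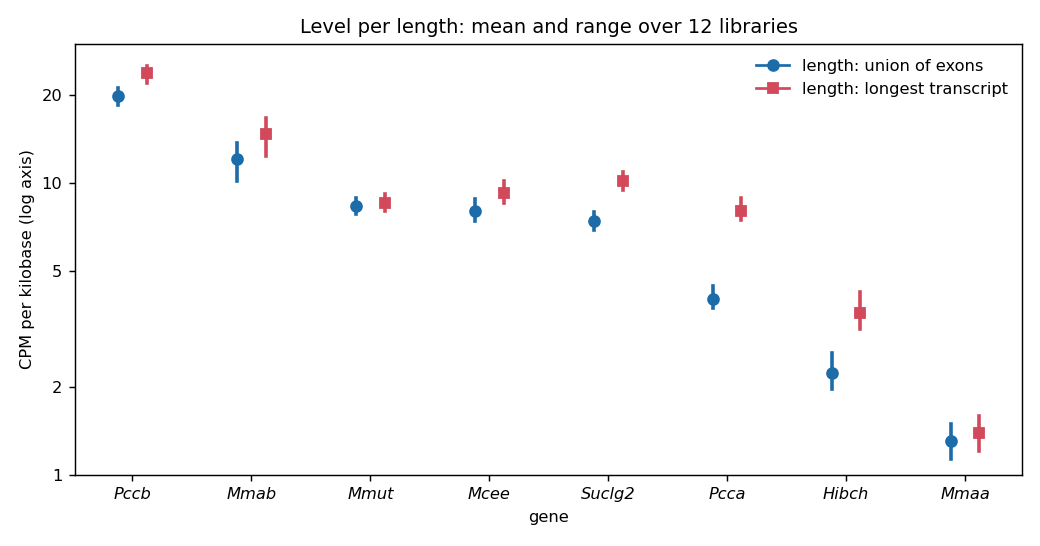
Mean level of each gene in CPM per kilobase (log axis), with lines from the lowest to the highest of the 12 libraries, with the union of exons (circles) or the longest transcript (squares) as length. Pccb was highest and Mmaa lowest on both, and the order in between depends on the length used.

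The next comparison asked whether levels differed between the 3 embryos. With 4 libraries per clone, 4 of 8 members passed the F test on clone, against 37.8% of all genes tested, a share near the background. Hibch was 14.2 to 15.9 CPM in clone 1, above all 8 libraries of the other clones, at 11.9 to 13.4 CPM (adjusted p = 0.0231, edgeR). Such separation of clone 1 from the other 8 libraries was seen in 16.9% of genes. Mmab was 46.7 to 50.4 CPM in clone 2 and 37.3 to 46.6 in the other clones (adjusted p = 0.0103), and 3.18% of genes had clone 2 outside the others' range. Mmaa was 8.28 to 8.97 CPM in clone 1, 7.04 to 8.52 in clone 2 and 6.82 to 7.65 in clone 3, with overlaps (adjusted p = 0.0272). Pccb was 51.3 to 55.4 CPM in clone 1, 56.5 to 58.5 in clone 2 and, overlapping both, 52.5 to 58.6 in clone 3 (adjusted p = 0.0481). DESeq2 gave an adjusted p of 0.0725 for Pccb. Mmut, Mcee, Pcca and Suclg2 did not pass (adjusted p = 0.166, 0.322, 0.0801 and 0.797, edgeR). Pcca was nevertheless 19.4 to 19.8 CPM in clone 3, below the other 8 libraries, a placement seen for clone 3 in 4.06% of genes. The libraries of a clone are not separate embryos, and clone 1 also had the highest macrophage marker sums, whose part in these differences was not tested. The response to induction differed between clones for 0 of 8 members by edgeR, with none at an unadjusted p under 0.05 (14.8% of all genes) and 0 by DESeq2 (2.15% of all genes by edgeR).

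**Figure D4:**
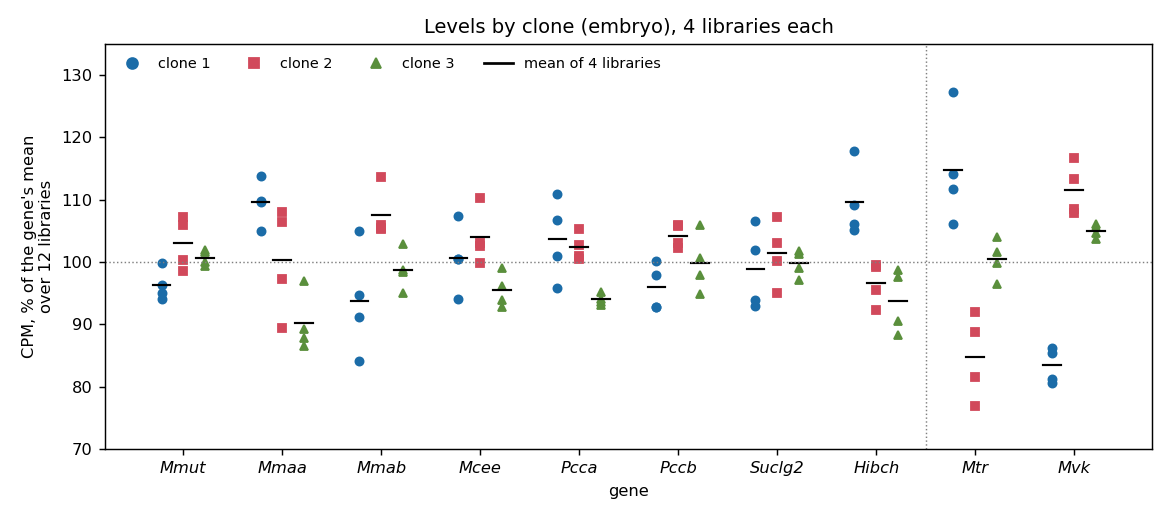
CPM of each library as a percentage of the gene's mean over 12 libraries, by clone, for the 8 members and, right of the dotted line, for Mtr and for Mvk, the neighbour of Mmab; bars are means of 4 libraries. Hibch was highest in clone 1, Mmab in clone 2, and Mvk was lowest in clone 1.

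The members lie apart in the genome (GRCm38). Mmut (ENSMUSG00000023921) is at chr17:40934685-40961988 on the plus strand, Mmaa (ENSMUSG00000037022) at chr8:79263598-79294937 on the minus strand, and Mmab (ENSMUSG00000029575) at chr5:114431034-114444060 on the minus strand. Mcee (ENSMUSG00000033429) is at chr7:64392607-64412125 and Pcca (ENSMUSG00000041650) at chr14:122534324-122891100, both on the plus strand. Pccb (ENSMUSG00000032527) is at chr9:100982032-101034898 and Suclg2 (ENSMUSG00000061838) at chr6:95473009-95718800, both on the minus strand, and Hibch (ENSMUSG00000041426) is at chr1:52844929-52920986 on the plus strand. For 3 of 8 members a protein-coding gene on the other strand starts within 1000 bases of their start, against 10.8% of the 21980 protein-coding genes in the table. These are Cenpq (a centromere protein) beside Mmut, whose exons overlap on opposite strands, Mvk (mevalonate kinase) 209 bases from Mmab, and Mphosph10 (a nucleolar protein) 339 bases from Mcee. Counting used strand, so reads of such pairs were kept apart.

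Mvk, which shares the upstream region of Mmab, was 48.9 to 52.3 CPM in clone 1, 65.4 to 70.7 in clone 2 and 62.9 to 64.3 in clone 3 (adjusted p between clones = 5.4e-05, edgeR). Both genes had their highest clone mean in clone 2 and their lowest in clone 1, at 47.7 ± 1.79 and 41.6 ± 3.84 CPM for Mmab and 67.7 ± 2.52 and 50.6 ± 1.74 for Mvk (SD, n = 4). The pair of Mmut and Cenpq went opposite ways in clone 1. There Mmut had its lowest clone mean (30.3 ± 0.802 CPM) and Cenpq its highest (7.63 ± 0.706 CPM, adjusted p between clones = 0.0128, edgeR). Mcee and Mphosph10 both had their highest clone mean in clone 2 and their lowest in clone 3, and neither passed between clones. Whether such pairs vary together was not tested. With averaged induction Mvk was at 0.02 ± 0.03 (adjusted p = 0.699, edgeR). The upstream sequences of Mmab and Pccb, the members with the lowest adjusted p for induction and for B12, are shown because they differ in the short words they hold. That of Mmab spans the 208 bases between its start and that of Mvk, chr5:114444061-114444268, and that of Pccb the 200 bases before its start, chr9:101034899-101035098. Both are from RefSeq windows on GRCm38.p6, minus strand, 5′ to 3′, with matches to the words below in capitals on either strand.
Mmab: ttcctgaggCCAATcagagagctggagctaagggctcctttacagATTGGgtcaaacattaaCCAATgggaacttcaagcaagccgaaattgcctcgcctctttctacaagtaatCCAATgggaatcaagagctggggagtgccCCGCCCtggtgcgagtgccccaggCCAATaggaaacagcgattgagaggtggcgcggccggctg
Pccb: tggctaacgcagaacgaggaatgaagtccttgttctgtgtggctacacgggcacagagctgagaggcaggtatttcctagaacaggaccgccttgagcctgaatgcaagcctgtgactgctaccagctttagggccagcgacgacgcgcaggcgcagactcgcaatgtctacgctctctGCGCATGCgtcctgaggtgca
The Mmab stretch held 6 matches, all to CCAAT or GGGCGG or their complements, and 8 CpG dinucleotides. The Pccb stretch held 1 match, to GCATGCGC, and 13 CpG.

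RefSeq windows of 250 bases before to 50 after the start were at hand for 7 of the 8 members (9 windows, with Mmaa and Pcca in 2 each). Mmut had none, so these counts do not cover it. For Pcca 1 window, chr14:122484115-122484414, lies upstream of the gene start given above and not at it. On both strands, TATAAA was in 0 of 9, against 13.6% of all 32851 windows, GGGCGG in 7 (35.7%) and CCAAT in 5 (37.4%). CCGGAAG was in 0 of 9 (8.86%), AAGGTCA in 0 (4.72%) and GCATGCGC in 1 (2.71%). The ratio of observed to expected CpG ranged from 0.406 for Suclg2 to 1.10 for Mcee, against a median of 0.384 over all windows. These counts describe the letters of the windows.

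The other genes of the pathway were taken from 8 lists with 57 genes, all tested. They covered the valine, isoleucine and leucine arms of branched-chain amino acid breakdown, succinyl-CoA synthetase, biotin, cobalamin delivery, side routes of short acyl-CoAs and the TCA cycle. With averaged induction 3 rose and 1 fell (7.02%, against 9.73% of all genes), and their median log2 fold change was 0.02. DESeq2 called the same 4 genes. None of the 57 passed the threshold with B12 averaged over states by edgeR, where 8 had an unadjusted p under 0.05, and DESeq2 also called 0. These counts stand against 3.84% and 15.5% of all genes. The 12 valine, 5 isoleucine, 5 leucine, 14 TCA cycle and 8 cobalamin genes had none past the threshold in either averaged contrast.

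Acod1, which makes itaconate from cis-aconitate and is known from activated macrophages, had 1.005, 0.174 and 0.457 CPM in the MEF libraries of clones 1, 2 and 3, and 1.69, 0.568 and 0.603 CPM in those of MEF+B12. Induced libraries had 5.06, 2.09 and 0.372 CPM (OSKM), or 6.62, 6.08 and 1.01 CPM (OSKM+B12). It was high in the induced libraries of clones 1 and 2 but not in those of clone 3, which overlapped the uninduced ones. The log2 fold change was 2.07 ± 0.39 (adjusted p = 0.0206, edgeR), and it rested on 11 to 450 counts per library. Without clone 2 it was 1.46 with an adjusted p of 0.426, and without clone 1 it was 1.94 with an adjusted p of 0.262. With averaged induction 1 macrophage marker rose (Itgam, 0.37 ± 0.10) and 2 fell (Csf1r, -0.31 ± 0.08, and Adgre1, -0.27 ± 0.07), and 7 of the 12 tested had an unadjusted p under 0.05, while the marker sums of MEF and OSKM overlapped. The part of these markers in the result for Acod1 was not tested.

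Echdc1, a decarboxylase that removes ethylmalonyl-CoA made by side reactions of acyl-CoA enzymes, had 22.1, 24.5 and 22.9 CPM in MEF, with 22.3, 24.3 and 22.9 CPM in MEF+B12. The OSKM libraries had 26.9, 28.4 and 24.8 CPM and those of OSKM+B12 had 25.98, 28.6 and 26.02 CPM, above every uninduced library, which was so for 1.12% of all genes in either direction. The log2 fold change was 0.21 ± 0.03 (adjusted p = 0.0150, edgeR). Slc5a6, the carrier that takes up biotin and pantothenate, was 6.50 to 7.92 CPM in the 6 uninduced and 7.25 to 9.31 in the 6 induced libraries, which overlapped, with a log2 fold change of 0.21 ± 0.06 (adjusted p = 0.0425). Pc, the biotin enzyme pyruvate carboxylase that feeds the TCA cycle with oxaloacetate, was 33.6 to 39.7 CPM in the uninduced and 25.9 to 37.7 in the induced libraries. Its log2 fold change was -0.23 ± 0.05 (adjusted p = 0.0219), and the log2 differences were -0.35, -0.29 and -0.07 in clones 1, 2 and 3. The fibroblast, epithelial and endothelial markers named above moved in the same libraries, and their part was not tested. All 3 genes lost their call when clone 1 or clone 2 was left out, with 10 and 3 genes called in all.

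**Figure D5:**
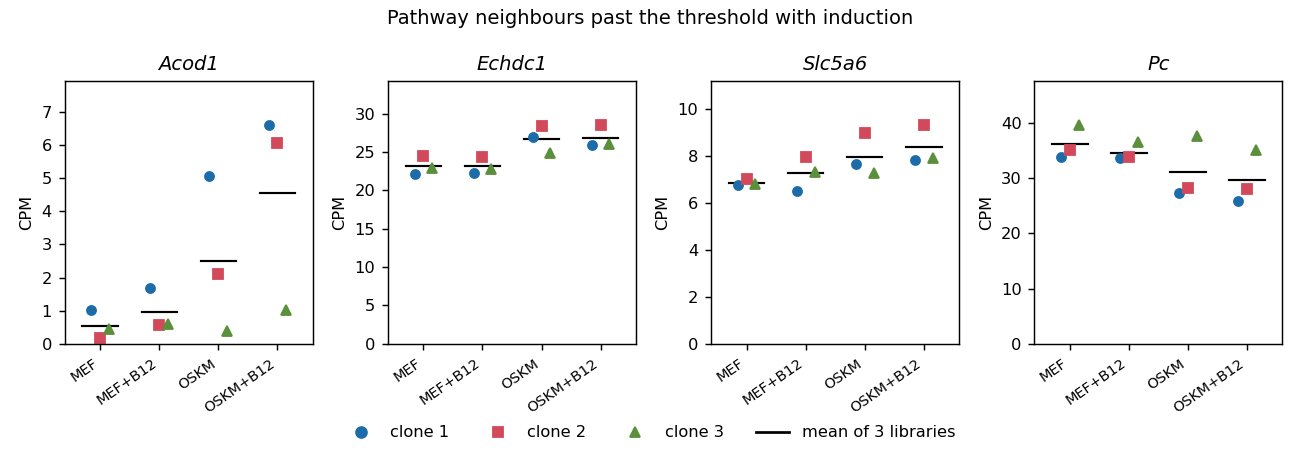
CPM (linear axes from 0) of the 4 pathway genes past the threshold for averaged induction, by group and clone, with bars at the mean of 3 libraries. Echdc1 was higher in all 6 induced libraries, while Acod1 and Pc moved most in clones 1 and 2.

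Between clones, 25 of the 57 genes passed (43.9%, against 37.8% of all genes). They included 6 of the 8 cobalamin genes, among them Mtr at 33.4 to 40.0 CPM in clone 1, 24.2 to 28.9 in clone 2 and 30.4 to 32.7 in clone 3 (adjusted p = 0.00135, edgeR), and Tcn2, the carrier of B12 in blood (adjusted p = 0.000137). The others of this list were Lmbrd1 and Abcd4, which move B12 out of lysosomes, Cd320, the receptor of the Tcn2 complex, and Mmachc, which processes B12 in the cytosol (adjusted p = 0.00051, 0.0138, 0.0162 and 0.0111). The ratio of Mmut to Mtr per kilobase thereby ranged from 1.68 to 2.89 over the libraries. In the other lists 5 of 7 genes of acyl-CoA side routes passed between clones, with 3 of 5 leucine, 2 of 5 isoleucine and 4 of 12 valine genes. The counts were 2 of 4 for biotin, 3 of 14 for the TCA cycle and 0 of 2 for succinyl-CoA synthetase.

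The genes most like Mmut were found by Pearson correlation of log2 CPM over the 12 libraries, among 11627 genes. The highest were Ssh2 (r = 0.916), Ppp1r15b (0.891), Tnxb (0.874) and Psme4 (0.852). The Spearman coefficients were 0.958, 0.930, 0.867 and 0.853. Without the 2 libraries farthest from the median of Mmut, which were OSKM+B12 of clone 2 and MEF of clone 1, r was between 0.821 and 0.856. These are the highest of 11627 values over libraries that share embryos and depth, and Mmut itself varied little. The other members were not near the top, with r from -0.489 for Hibch to 0.540 for Mmab and ranks from 1442 to 9633.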

How the data were processed

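RNA was measured in 12 libraries (3 embryos, 4 groups). The authors made stranded poly(A) libraries, aligned read pairs with STAR (version 2.5.2 per the submitters' processing notes) to mm10 (GRCm38), and counted pairs per Ensembl 97 gene with featureCounts in reverse-stranded mode, adding the flow cells of a library. The deposited values are raw counts. The doxycycline dose is that of the labels, and the study's methods give another unit.

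Of 55573 gene identifiers, 55480 matched GENCODE M21 (GRCm38). No 2 libraries held identical counts. CPM used TMM factors of 0.934 to 1.06. The test was edgeR 4.0.16 (R 4.3.3), quasi-likelihood, with filterByExpr by group (19174 genes), terms for group and clone, and p-values adjusted over all genes tested by Benjamini and Hochberg's method (threshold 0.05). The SE is the size of the log2 fold change over the square root of F. F tests on the clone terms, and on clone by state terms, compared clones. Clone entered as a block, since the 4 groups share the same 3 embryos. Deviations from group means correlated at 0.270 to 0.687 within clones and at most 0.170 between them. The biological coefficient of variation was 8.04%. The fit was tested on simulated data with log2 fold changes of 0.5 or more in size. At 0.5 it recovered 69.2% of changed genes for induction without B12 and 78.5% for averaged B12, with 12 false calls in each. The members' fold changes were at most 0.12 in size, so the simulation does not cover changes that small. It also gave every gene the same spread and every clone the same change, whereas clone 3 responded less in the data. The recovered shares therefore do not measure the power in these data. Cell counts and RNA per cell cannot be told apart in bulk RNA, and counts carry no molecular identifiers.

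The named genes are all 8 members, genes of the other pathway lists past the threshold in a contrast, a few partners and factors, and the 5 genes most correlated with Mmut, of which 1 is not reported here. Of the genes that passed between clones, those of the cobalamin list are named. The members and lists were chosen with earlier results of these data known. Alternatives were DESeq2 1.42.0, DESeq2 size factors, library totals, no filter, a filter of 10 counts in every library, only the libraries compared, no clone block, leaving out each clone or the OSKM library of clone 1 (which stood apart in pseudogene counts in earlier results), and the longest transcript as length.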

Additional observations from a re-analysis of the deposited data

Results flagged for a closer look

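The response to induction differed between the clones for 2 of the factors in the cassette by the F test on clone by state terms (edgeR). The adjusted p was 0.0156 for Sox2 and 0.000653 for Myc. Sox2 was 15.5, 13.3 and 2.33 CPM in OSKM and 15.95, 17.8 and 2.18 in OSKM+B12 for clones 1, 2 and 3, with 0.838 CPM as its highest uninduced value. Myc was 53.4, 43.97 and 20.05 CPM in OSKM and 50.4, 43.6 and 21.9 in OSKM+B12, against 16.4 to 23.3 CPM in the uninduced libraries. Without clone 3 the adjusted p was 0.871 for both. Among the 8 members none differed in this test, by edgeR or DESeq2, with adjusted p of 0.487 to 0.917.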

How the results depend on the processing

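None of the 8 members passed the threshold in any contrast under the alternatives run, except that with library totals 1 member (Mmab) passed for averaged induction. Without the clone block (no pairing of libraries by embryo) 0 members passed in the 7 contrasts, and the 4 neighbours lost their calls, Acod1 at 2.23 (adjusted p = 0.224), Echdc1 at 0.21 (0.177), Slc5a6 at 0.21 (0.307) and Pc at -0.22 (0.373). Without that block no gene passed for induction, and 90 of all genes did for averaged B12, against 736. Slc5a6 also lost its call with no filter (0.0511) and without the OSKM library of clone 1 (0.0665). The members past the threshold between clones numbered 4 and were 0 to 3 when a clone or the OSKM library of clone 1 was left out. The lowest count, 0, came without clone 1, when 1315 of all genes passed against 7239. Of the 4, Mmab did not pass with library totals (adjusted p = 0.0790), and Pcca then did (0.0276). Hibch was at 0.0608 and Pcca at 0.0139 without the OSKM library of clone 1, and Pccb was at 0.380 with library totals, 0.203 with no filter and 0.0521 with at least 10 counts in every library.

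Of the members' 23 fold changes, 206 of 236 values under alternatives kept their direction and their side of the threshold. The 29 that changed sign were small. With library totals Mmut was at 0.0481 for induction without B12, 0.0107 for B12 in MEF and 0.0705 for averaged induction (direction kept), Mmaa at 0.0056, Suclg2 at 0.0189 and Hibch at 0.0086 for averaged B12, and Pcca at 0.0468 and Sucla2 at 0.0093 for averaged induction. Mcee was at -0.0015 with DESeq2 and -0.0018 with its size factors, and Pcca at 0.0035 with at least 10 counts in every library, for averaged induction. With libraries left out, Mmut ranged from -0.0228 to 0.0380 for induction without B12, -0.0340 to 0.0203 for B12 in MEF, -0.0024 to 0.0291 for averaged B12 and -0.0172 to 0.115 for the interaction. For averaged induction the ranges were 0.0517 to 0.125 for Mmab and 0.0464 to 0.132 for Suclg2, with the lowest without clone 1 for both, -0.00052 to 0.125 for Mmaa, -0.0472 to 0.0325 for Mcee, -0.0187 to 0.0331 for Pcca and -0.0174 to 0.0295 for Hibch. For averaged B12 they were -0.0487 to 0.0055 for Mmaa, -0.0338 to 0.0525 for Mcee, -0.0111 to 0.0801 for Pcca, -0.0062 to 0.0222 for Suclg2 and -0.0660 to 0.0291 for Hibch. The median over all genes also moved with library totals. It was 0.0458 for induction without B12 (-0.0081 with TMM), 0.0434 for averaged induction (-0.0028) and 0.0116 for averaged B12 (-0.0131). The cause of the changes in sign was not tested.

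Counts over all genes moved more. Induction without B12 had 14 genes, against 492 with DESeq2, 681 with no filter, 2 with at least 10 counts in every library, 4 with only the libraries compared and 1 to 1322 with libraries left out. Induction with B12 had 20, against 420, 646, 1, 6 and 1 to 1004. Averaged induction had 1865, against 3 to 3056 with libraries left out, the lowest without clone 2 and the highest without clone 3. B12 in OSKM had 204, against 385, 364 with no filter, 108 with only the libraries compared and 0 to 224, and B12 in MEF 264, against 461, 425, 845, 409 with library totals and 0 to 334. Averaged B12 had 34 to 785 and the response between clones, at 413, had 0 to 838 with libraries left out and 1257 with no filter.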
